A study of Mus musculus with 6 samples.

Results

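DEAD and DEAH box proteins are RNA helicases named after the amino acids of a shared ATP-binding motif. They use ATP to pull RNA strands apart, to strip proteins from RNA or to clamp onto it, and they act at nearly every step of an RNA's life, including splicing, ribosome assembly, export, translation and decay. Male germ cells depend on several of them, and some transcripts made during meiosis are stored and translated later, during spermatid development. The members described here are the genes whose name in the peak tables starts with Ddx or Dhx followed by a digit, with Ddx3y left out. They comprise 48 genes (32 named Ddx and 16 named Dhx) that carry 203 of the 47808 listed peaks. They were taken by name and not by a measured value, though earlier results of these data were known at that choice.

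N6-methyladenosine (m6A), a methyl mark on adenosines of mRNA, was mapped by sequencing RNA captured with an antibody (IP) beside the RNA before capture (input). The cells were labelled as spermatocytes, and as male germ cells, of mice at postnatal day 35. The 3 genotypes were ClpX cKO, ClpP cKO and WT, both knockouts being driven by Stra8-Cre and so limited to the germ line, and whether WT animals carried Cre or floxed alleles is not given in the labels. Each genotype had 1 IP and 1 input library, which leaves the values without a replicate error and permits no test across animals. ClpX is the unfoldase and ClpP the peptidase of one protease of the mitochondrial matrix. The values are the authors' own comparisons of ClpX cKO with WT (23681 peaks on 13085 genes) and of ClpP cKO with WT (24127 peaks on 13334 genes), which share the WT libraries. Values above 0 on the log2 scale are read as more enrichment in the knockout. That direction rests on the order in which each table names the genotypes. A peak counts as called at a deposited adjusted p under 0.05 for the genotype difference, and such a call compares libraries, not conditions. Positions are on GRCm38 (mm10), and a span from start to end can include introns.

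The depth of each library is unknown, since the tables hold no counts. The targeted genes check the labels only weakly, because enrichment is a ratio: Clpx had log2 fold changes of 0.55 (ClpX cKO) and 0.38 (ClpP cKO), and Clpp was listed for ClpX cKO alone, at 1.70, none of them called in the authors' deposited tables. Of 15 spermatocyte markers 6 carried a peak in the ClpX table (9 peaks, 4 called higher and 0 lower, median 0.49) and 9 in the ClpP table (19 peaks, 6 higher and 3 lower, median 0.54). All 10 spermatid markers carried a peak in the ClpX table (16 peaks, 8 higher and 0 lower, median 0.58), and 9 did in the ClpP table (14 peaks, 2 higher and 4 lower, median 0.02). Of 18 markers of somatic testis cells 12 carried a peak in the ClpX table (22 peaks, 3 higher and 1 lower, median 0.82) and 10 in the ClpP table (19 peaks, 3 higher and 1 lower, median 0.15). Over all peaks, 15.1% were called higher and 5.0% lower in the ClpX table, and 6.74% and 12.8% in the ClpP table. Several marker peaks can lie on the same gene. In the ClpP table the 6 spermatocyte peaks called higher lay on 2 genes, and the 3 called lower on 1. The labelled cell type cannot be checked by level, since the tables give no RNA abundance. The part of other cell types in the helicase values was not tested. In a bulk preparation a changed mix of cells and a changed mark per transcript cannot be told apart.

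Helicase peaks were spread along the whole gene. Of 105 placed helicase peaks of the ClpX comparison, 35 (33.3%, exact binomial 95% interval 24.4 to 43.2) had their centre in the last 10% of the gene span, against 39.2% of 21888 placed peaks of all genes. In the ClpP table the count was 32 of 94 (34.04%, interval 24.6 to 44.5), against 40.8% of 22199. These intervals cover counting error over peaks, which are not independent within a gene. A peak more often crossed an exon junction on helicase genes: 52 of 106 (49.1%, interval 39.2 to 59.0) were listed in several blocks in the ClpX table, against 27.5% of all peaks, and 48 of 97 (49.5%, interval 39.2 to 59.8) in the ClpP table, against 29.7%. Helicase genes carried 2.30 peaks each on average in the ClpX table, against 1.81 over all genes, and 2.16 in the ClpP table, against 1.81. The 3 lists described further below are other RNA helicases, G-patch proteins, and partners of the export and decay helicases. In that order they held 42 peaks on 19 genes, 59 on 22 and 32 on 17 for ClpX. Of these peaks 15, 23 and 16 were listed in several blocks. For ClpP they held 37 on 17, 63 on 23 and 34 on 16, with 17, 26 and 16 peaks in several blocks. The share in several blocks was thus above that of all peaks in each list too. These differences were not tested.

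**Figure D1:**
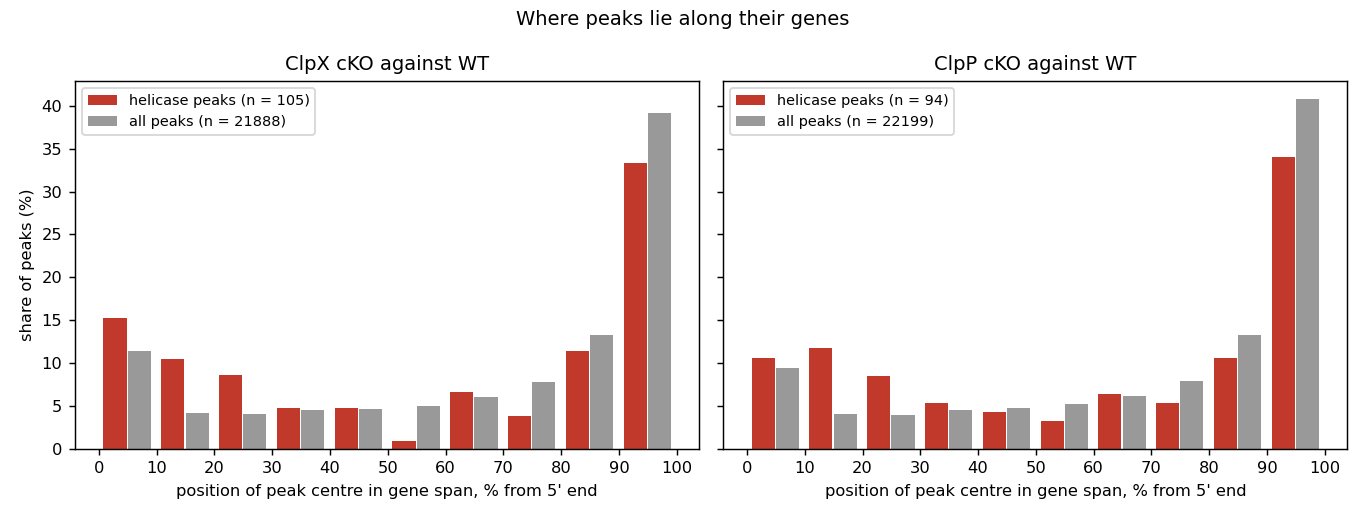
Share of peaks (vertical axis, percent) by position of the peak centre in the RefSeq gene span (horizontal axis, percent from the 5′ end), for helicase peaks (red) and all peaks (grey), with the ClpX comparison on the left and the ClpP comparison on the right. The last 10% of the span held 33.3% of helicase peaks against 39.2% of all peaks for ClpX, and 34.04% against 40.8% for ClpP.

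On 9 helicase genes a peak reached the first 50 bases of the RefSeq gene span, and for 4 of them the RefSeq promoter table holds the start that the peak covers. The first 30 bases of those transcripts are shown 5′ to 3′ because they are stretches under helicase peaks that the RefSeq table covers. Capitals mark GAC, the core of the motif in which m6A is usually written, read on the transcribed strand. The letters beside GAC, which belong to the full motif, were not checked, so a marked stretch need not hold that motif.
Dhx8: aaaagaGACgagcgccGACccggaagtgga
Dhx30: cgcaGACtGACtgtctcgcgctgtgggctg
Ddx54: gcccgcatggctgctggcaGACgtgtggga
Dhx29: atggaggaggctgggtggaggcgtgggagc
The windows lie on GRCm38.p6 at chr11:101732956-101732985 (plus strand), chr9:110117587-110117616 (minus), chr5:120613130-120613159 (plus) and chr13:112927680-112927709 (plus). GAC is present in 3 of these 4 windows and in 32.4% of the 32851 start windows of the table. A match is a string of letters and no mapped site. The peak over the Dhx8 start was called higher in ClpX cKO and is described below, and that over the Dhx30 start had the lowest helicase log2 fold change in either table, without being called.

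In ClpX cKO, helicase peaks were called in both directions, more often higher. Of 106 peaks on 46 genes, 23 were called higher (16 genes) and 9 lower (9 genes), and Ddx5 and Dhx15 had both kinds. The shares were 21.7% of helicase peaks higher (interval 14.3 to 30.8), against 15.1% over all peaks, and 8.49% lower (4.0 to 15.5), against 5.0%, so that 30.2% of helicase peaks and 20.1% of all peaks were called. The median log2 fold change of helicase peaks was 0.06, against 0.24 over all peaks. The balance of calls depended on scaling. After subtraction of the median of all peaks, with each peak called anew, 14 helicase peaks were higher and 26 lower. The shares over all peaks were 11.2% and 14.7%. With pooled errors, taken from peaks of similar adjusted p for the peak itself, 13 were higher and 21 lower, against 12.3% and 16.0%. Without pooling, the error of a peak came from its own log2 fold change and p, and is too small near a change of 0. Such peaks, like the second Dhx37 site (-0.00363, deposited p 0.53), can be called through the shift alone. Their part in the 26 was not tested.

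In ClpP cKO, most called helicase peaks were lower. Of 97 peaks on 45 genes, 6 were called higher (6 genes) and 17 lower (14 genes), and Ddx6 had both kinds. The shares were 6.19% higher (interval 2.30 to 13.0), against 6.74% over all peaks, and 17.5% lower (10.6 to 26.6), against 12.8%, so that 23.7% of helicase peaks and 19.6% of all peaks were called. The median was 0.02, against -0.03 over all peaks. With the median of all peaks subtracted the counts were 6 higher and 16 lower, against 9.16% and 12.2% of all peaks, and with pooled errors 12 and 21, against 11.7% and 16.9%. With the deposited calls, the counting interval of each helicase share by direction holds the share over all peaks, in both comparisons. After the median was subtracted this held for each share but one: 24.5% of helicase peaks were lower in ClpX cKO (interval 16.7 to 33.8), against 14.7% over all peaks. Both of these shares carry the limit given above, that errors are too small for peaks with a log2 fold change near 0. With pooled errors that share was 19.8% (12.7 to 28.7), against 16.0%. No interval was computed for the share of peaks called in either direction. By gene, the ClpX interval for either direction, given below, lies above the share over all genes.

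Stricter rules kept calls in both directions. At an adjusted p under 0.01 the ClpX table held 14 helicase peaks called higher and 5 lower, against 11.3% and 2.78% of all peaks, and the ClpP table held 3 and 14, against 4.06% and 9.66%. Where a size of 1 or more on the log2 scale was also asked for, the counts were 12 and 6 for ClpX, against 10.2% and 3.44%, and 4 and 7 for ClpP, against 4.5% and 4.65%. With 1 peak per gene, the one of highest fold enrichment, 8 of 46 genes were higher and 6 lower for ClpX, against 13.4% and 6.7% of all genes, and 2 and 11 of 45 genes for ClpP, against 5.56% and 15.0%.

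**Figure D2:**
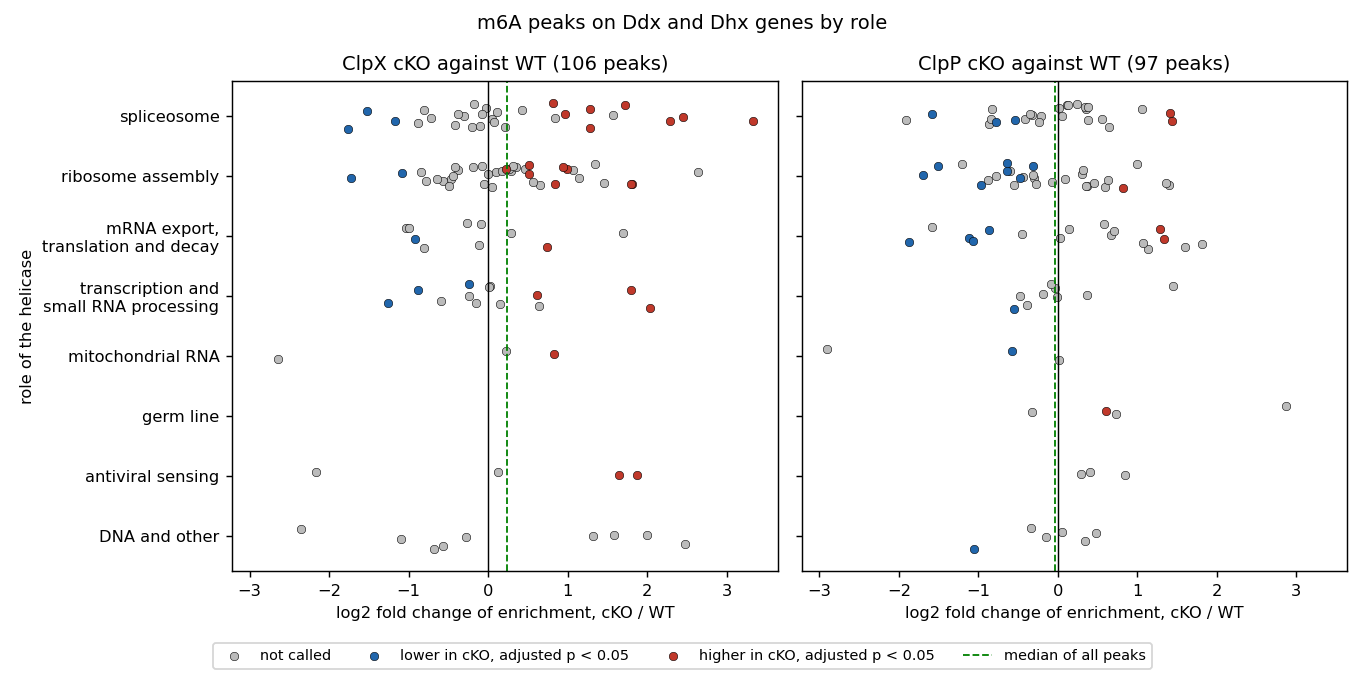
Log2 fold change of enrichment, cKO over WT (horizontal axis), of each helicase peak, grouped by the role of the gene (vertical axis), for ClpX cKO (left, 106 peaks) and ClpP cKO (right, 97 peaks). Red and blue points are peaks called higher or lower and grey points were not called, with the dashed line at the median of all peaks (0.24 and -0.03). Called ClpX points lie on both sides of 0 in the 4 largest role groups, while called ClpP points lie mostly below 0.

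The counts by role that follow stand beside 15.1% of all peaks called higher and 5.0% lower in ClpX cKO, and 6.74% and 12.8% in ClpP cKO. In the 4 largest role groups the interval of each share holds these values, except for the transcription group in ClpX cKO, where 23.1% were lower (interval 5.04 to 53.8).

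Most members of the spliceosome group act in splicing. DEAD-box proteins place and check the small nuclear RNAs, and DEAH-box proteins drive the spliceosome through its steps and take it apart. Dhx32 and Dhx40 were also placed in this group, and whether they act in splicing was not checked. In ClpX cKO 8 of the 29 peaks of the group were called higher and 3 lower (median log2 fold change 0.05). In ClpP cKO 2 of 26 were higher and 3 lower (median 0.03).

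Among the DEAD-box splicing factors, Ddx46, which acts on branch site recognition, was called higher in both knockouts. Its 1 peak, 6 exon blocks on chromosome 13 (55638186 to 55652084 in the ClpX table), had a log2 fold change of 0.96 (adjusted p 0.00224) in ClpX cKO and 1.44 (8.71e-09) in ClpP cKO in the authors' deposited tables. Ddx41, a late splicing factor also known for sensing cytosolic DNA, had the highest value of all helicase peaks. Its site at 55535886 to 55536154 on chromosome 13 was listed for ClpX cKO alone, at 3.33 (adjusted p 2.88e-10), as was its site near the gene end, at 1.72 (1.74e-05), in the authors' deposited table. Both of these peaks were weakly enriched over input, with fold enrichments of 2.87 and 1.71. The Ddx41 peak at the gene start stood at -0.21 in ClpX cKO and -0.84 in ClpP cKO, called in neither, and it shares bases with a peak of Gm46416.

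Ddx39b, which serves both splicing and mRNA export, was listed for ClpX cKO alone, at 2.28 (adjusted p 0.00832, chromosome 17, 35249211 to 35249449) in the authors' deposited table. Ddx23, which frees the 5′ splice site during spliceosome activation, carried 5 sites and only the last, at 98645284 to 98646003 on chromosome 15, was called. The authors' deposited tables gave it 0.81 in ClpX cKO (adjusted p 0.0145) and 0.12 in ClpP cKO. The ClpX call was lost with the median of all peaks subtracted (adjusted p 0.0978). At the other sites Ddx23 ranged from -0.89 to 0.22 in ClpX cKO and from -0.87 to 1.06 in ClpP cKO. Ddx42 showed the reverse pattern of calls, with its last site (106246786 to 106248869 on chromosome 11) called lower in ClpP cKO alone, at -0.53 (adjusted p 0.00661), against -0.31 in ClpX cKO, in the authors' deposited tables. The upstream Ddx42 site stood at 0.84 in ClpX cKO and 0.38 in ClpP cKO, called in neither.

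The DEAH-box members of the spliceosome group differed from one another. Dhx15, which disassembles the spliceosome, had the smallest adjusted p of all helicase peaks and was called in both directions within one gene. In the authors' deposited ClpX table its site at 52184628 to 52184927 on chromosome 5 stood at 2.45 (adjusted p 1.0e-42, fold enrichment 2.36) and its last site, at 52150532 to 52151862, at -1.53 (0.0229, fold enrichment 4.38). None of its 4 ClpP peaks was called, with values of -1.91, -0.21, 0.65 and -0.32 from the 5′ to the 3′ end, and the second of them overlaps the ClpX peak only in part.

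Dhx16, which remodels the spliceosome before the first step, was called higher at opposite ends of the gene. The 5′ site (35880118 to 35882987 on chromosome 17) had 1.28 in ClpX cKO (adjusted p 1.02e-09) and 0.12 in ClpP cKO, and the 3′ site (35892491 to 35892670) had 0.43 in ClpX cKO and 1.41 in ClpP cKO (0.0214), in the authors' deposited tables. Dhx38, which acts between the steps of splicing, was called lower in both. Its first site (109561379 to 109565562 on chromosome 8) stood at -1.77 (adjusted p 9.12e-05) in ClpX cKO and -1.58 (8.71e-05) in ClpP cKO in the authors' deposited tables. The other 3 Dhx38 sites ranged from -0.81 to -0.39 in ClpX cKO and from -0.83 to 0.34 in ClpP cKO, with no call.

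Dhx8, which releases the finished mRNA, was called at its transcript start alone, the window printed above. That site had 1.28 in ClpX cKO (adjusted p 0.0174) and 0.38 in ClpP cKO in the authors' deposited tables, and the call was lost with the median of all peaks subtracted (adjusted p 0.0558). Its 2 other sites stayed between 0.07 and 0.11 in ClpX cKO and between -0.24 and 0.05 in ClpP cKO. Dhx32 was called lower in both knockouts at its first site (133749030 to 133760126 on chromosome 7), with -1.17 (adjusted p 0.00107) in ClpX cKO and -0.78 (0.0224) in ClpP cKO in the authors' deposited tables. Its later sites had -0.10 and 0.05 in ClpX cKO and -0.35 and 0.36 in ClpP cKO, and the last shares bases with a peak of Bccip. Dhx35, listed for ClpX cKO alone at 1.57 (adjusted p 0.0603), and Dhx40, at -0.18 in ClpX cKO and 0.02 in ClpP cKO in the authors' deposited tables, were not called.

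Helicases of ribosome assembly, which fold precursor ribosomal RNA in the nucleolus, formed the largest group. In ClpX cKO 8 of their 38 peaks were called higher and 2 lower (median 0.24), and in ClpP cKO 1 of 29 was higher and 7 lower (median -0.30). Of the 8 ClpX calls to the higher side 4 were on Ddx24.

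Ddx24 was called at every one of its listed sites. In the authors' deposited ClpX table its 4 sites on chromosome 12 had 0.22 (adjusted p 0.0380), 0.52 (5.89e-05), 0.51 (2.09e-04) and 1.79 (3.16e-39) from the 5′ to the 3′ end, all called higher. In the authors' deposited ClpP table the first 3 of these sites had -0.64 (adjusted p 2.0e-20), -0.32 (0.00324) and -0.65 (1.82e-09), all called lower. The fourth, at 103408042 to 103409280 near the gene end, was listed for ClpX cKO alone and had a fold enrichment of 1.81. The first 3 ClpX calls depend on scaling. With the median of all peaks subtracted these sites had -0.022 (adjusted p 0.846), 0.28 (0.0505) and 0.27 (0.0760), none called, while the fourth kept its call and all 3 ClpP calls remained.

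Ddx21, a nucleolar helicase that also associates with transcribing polymerases, was likewise called in opposite directions at its last site (62582136 to 62584652 on chromosome 10). That site had 0.99 in ClpX cKO (adjusted p 1.15e-04) and -0.48 in ClpP cKO (0.0240) in the authors' deposited tables, while its first site stood at 0.05 in ClpX cKO and 0.09 in ClpP cKO. Ddx10 was called higher in ClpX cKO near its 5′ end (53247845 to 53248053 on chromosome 9), at 1.81 (adjusted p 0.0115), and at its second site, at 0.84 (0.0355), in the authors' deposited table. The third Ddx10 site had -0.38 in ClpX cKO, and the call at the second site was lost with the median of all peaks subtracted (adjusted p 0.144). The 1 ClpP peak, 7 blocks long and reaching across both later ClpX sites, had 0.31. Ddx27 had 0.94 at its first site (adjusted p 0.0447, called higher) and -0.84 at its last in ClpX cKO, against 0.32 and 0.60, not called, in ClpP cKO, in the authors' deposited tables. Its ClpX call was lost with the median of all peaks subtracted (adjusted p 0.141).

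Calls to the lower side in ClpX cKO fell on Ddx18 and Ddx51. The last Ddx18 site (121553835 to 121554134 on chromosome 1) had -1.73 in ClpX cKO (adjusted p 0.0209) and -0.44 in ClpP cKO, and its first site -0.47 in ClpX cKO and 0.37 in ClpP cKO, in the authors' deposited tables. The single Ddx51 site (110657648 to 110658037 on chromosome 5) had -1.09 in ClpX cKO (adjusted p 0.00676) and -0.27 in ClpP cKO in the authors' deposited tables.

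In ClpP cKO the largest decrease of the group was on Ddx56, at -1.70 (adjusted p 8.71e-07, chromosome 11, 6258919 to 6259564), against -0.44 without a call in ClpX cKO, in the authors' deposited tables. Dhx33 followed, with its site at 70986636 to 70987414 on chromosome 11 at -1.51 in ClpP cKO (adjusted p 1.82e-06) and -0.78 in ClpX cKO (0.0513, not called) in the authors' deposited tables. The other Dhx33 sites ranged from 0.17 to 0.65 in ClpX cKO and from -0.32 to 0.45 in ClpP cKO. Ddx31 was called lower in ClpP cKO at its second site (28904763 to 28905302 on chromosome 2), at -0.96 (adjusted p 0.0490), against -0.05 in ClpX cKO, in the authors' deposited tables, a call that was lost with the median of all peaks subtracted (adjusted p 0.0562). Its first site had 1.34 in ClpX cKO and 1.40 in ClpP cKO, and a site listed for ClpX cKO alone had 2.64, none called in the authors' deposited tables. Ddx52, which acts on the small ribosomal subunit, was the only member of the group called higher in ClpP cKO, at 0.81 (adjusted p 1.70e-05, chromosome 11, 83959504 to 83963088), against 0.28 in ClpX cKO, in the authors' deposited tables.

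Helicases of mRNA export, translation and decay had 1 of 10 peaks called higher and 1 lower in ClpX cKO (median -0.19), and 2 of 17 higher and 4 lower in ClpP cKO (median 0.58). Ddx6, which represses translation and promotes decapping in processing bodies, had the smallest adjusted p of all helicase peaks in ClpP cKO. Its 5′ site (44604892 to 44612835 on chromosome 9) had -1.87 in ClpP cKO (adjusted p 6.31e-23) and -0.93 in ClpX cKO (0.00813) in the authors' deposited tables. Its second site had -0.87 in ClpP cKO (adjusted p 7.94e-20) and -0.27 without a call in ClpX cKO. Both peaks were strongly enriched, with fold enrichments of 26.0 and 34.4 in the ClpP table. Another, weakly enriched site near the gene end (44640012 to 44640251, fold enrichment 2.50) was listed for ClpP cKO alone and called higher at 1.33 (adjusted p 0.0224) in the authors' deposited table, so that Ddx6 was the 1 helicase gene called both ways there.

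Ddx19b, which strips export factors from mRNA at the nuclear pore, was called lower in ClpP cKO at its single site (111007622 to 111008281 on chromosome 8), at -1.12 (adjusted p 7.94e-14), against -0.11 in ClpX cKO, in the authors' deposited tables. Dhx34, a factor of nonsense-mediated decay, was called in opposite directions. Its second site (16218072 to 16219027 on chromosome 7) had 0.74 in ClpX cKO (adjusted p 0.0148) and -1.07 in ClpP cKO (4.07e-08), and its first site -1.0 in ClpX cKO and -1.58 in ClpP cKO without a call, in the authors' deposited tables. The ClpX call at the second site was lost with the median of all peaks subtracted (0.50, adjusted p 0.116), which ends the opposite calls. Dhx36, which unwinds RNA quadruplexes, was called higher in ClpP cKO at its first site (62470410 to 62471463 on chromosome 3), at 1.29 (adjusted p 0.0468), against -0.81 in ClpX cKO without a call, in the authors' deposited tables. Its 2 other ClpP sites had 1.07 and 0.71, not called.

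The helicases that assist transcription and small RNA processing had 3 of 13 peaks called higher and 3 lower in ClpX cKO (median 0.01), and 0 of 9 higher and 1 lower in ClpP cKO (median -0.09). Ddx5 and its close relative Ddx17 are cofactors of transcription and of microRNA processing. In the authors' deposited ClpX table Ddx5 had 1.79 at its 5′ site (106788724 to 106789125 on chromosome 11, adjusted p 1.0e-11, fold enrichment 1.60), 2.04 at the second (0.00955, 2.36) and -0.88 at the third (2.24e-07, 3.05). The 2 sites called higher were listed for ClpX cKO alone, and the third had -0.01 in ClpP cKO. Ddx17 had 7 sites, and only the third (79531628 to 79531898 on chromosome 15) was called, at 0.61 in ClpX cKO (adjusted p 0.0229) against -0.03 in ClpP cKO, in the authors' deposited tables, a call that was lost with the median of all peaks subtracted (adjusted p 0.194). Its other sites ranged from -0.59 to 0.63 in ClpX cKO and from -0.47 to 0.36 in ClpP cKO.

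Ddx20, a component of the complex that loads Sm proteins on small nuclear RNAs, was called lower in both knockouts at its single site (105678270 to 105679521 on chromosome 3), with -0.24 (adjusted p 0.0204) in ClpX cKO and -0.55 (3.16e-19) in ClpP cKO in the authors' deposited tables. Dhx9, a nuclear helicase of long duplexes, was called lower in ClpX cKO at its last site (153456117 to 153457582 on chromosome 1), at -1.26 (adjusted p 0.0132, fold enrichment 51.6), against -0.09 in ClpP cKO, in the authors' deposited tables. Its upstream sites had 0.01 in ClpX cKO, and 1.45 and -0.18 in ClpP cKO, without a call.

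Of the helicases that work inside mitochondria, Dhx30, which is needed for assembly of the mitochondrial ribosome, was called in opposite directions. Its 3′ site (110087505 to 110088345 on chromosome 9) had 0.83 in ClpX cKO (adjusted p 6.31e-12) and -0.58 in ClpP cKO (2.69e-10) in the authors' deposited tables. The peak over its transcript start, printed above, had -2.64 in ClpX cKO (adjusted p 0.191) and -2.91 in ClpP cKO (0.0912), called in neither. Ddx28, another mitochondrial ribosome assembly factor, had 0.22 in ClpX cKO and 0.02 in ClpP cKO, without a call, in the authors' deposited tables.

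Germ-line helicases were sparsely covered. Ddx25, which is needed for spermatids to complete their development, was listed for ClpP cKO alone, with a weakly enriched peak (fold enrichment 1.76) at 35541817 to 35542026 on chromosome 9 called higher at 0.60 (adjusted p 2.95e-06) in the authors' deposited table. A second Ddx25 peak lay beyond the RefSeq gene end and had 0.74, not called. Ddx43 was also listed for ClpP cKO alone, at -0.32 and 2.87 in the authors' deposited table, neither called, though 2.87 (adjusted p 0.148) was the highest ClpP value of all helicase peaks. Ddx4, the vasa homolog that marks germ cells, had no listed peak, nor had Ddx1, Ddx19a and Ddx60, which leaves 4 of 52 RefSeq genes of these names without one.

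The antiviral sensor Dhx58 was called higher in ClpX cKO at both of its sites on chromosome 11. In the authors' deposited tables the 5′ site (100703549 to 100704241) had 1.65 in ClpX cKO (adjusted p 0.01) and 0.29 in ClpP cKO, and the 3′ site (100695003 to 100695330) had 1.87 in ClpX cKO (2.69e-04, fold enrichment 1.68) and 0.41 in ClpP cKO. Ddx11, which despite its name unwinds DNA and supports sister chromatid cohesion, was called lower in ClpP cKO at its last site (66151035 to 66151514 on chromosome 17), at -1.05 (adjusted p 0.00302), against -0.57 in ClpX cKO, in the authors' deposited tables. Its upstream sites had 2.47 and 1.32 in ClpX cKO and 0.34 in ClpP cKO, without a call.

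In ClpX cKO 23 of 46 helicase genes had at least 1 called peak (interval of the share 34.9 to 65.1%), against 29.3% of all genes, and in ClpP cKO 19 of 45 (42.2%, 27.7 to 57.9), against 28.8%. Helicase genes also carried more peaks each, as given above, and the part of this in the shares was not tested. The 16 genes called in neither table were Ddx3x, Ddx28, Ddx39, Ddx43, Ddx47, Ddx49, Ddx50, Ddx54, Ddx55, Ddx58, Ddx59, Dhx29, Dhx35, Dhx37, Dhx40 and Dhx57. Their 30 ClpX peaks ranged from -2.35 to 2.0 and their 28 ClpP peaks from -1.20 to 2.87, and their smallest adjusted p was 0.0603. Ddx3x, which helps ribosomes start on structured mRNAs, had 0.28 in ClpX cKO, and 0.58 and 0.66 in ClpP cKO. Both Ddx49 peaks share bases with a peak of Homer3, the last Ddx54 peak with Cfap73 and Gm43579, and the first Dhx57 peak with Morn2, so their gene is uncertain.

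**Figure D3:**
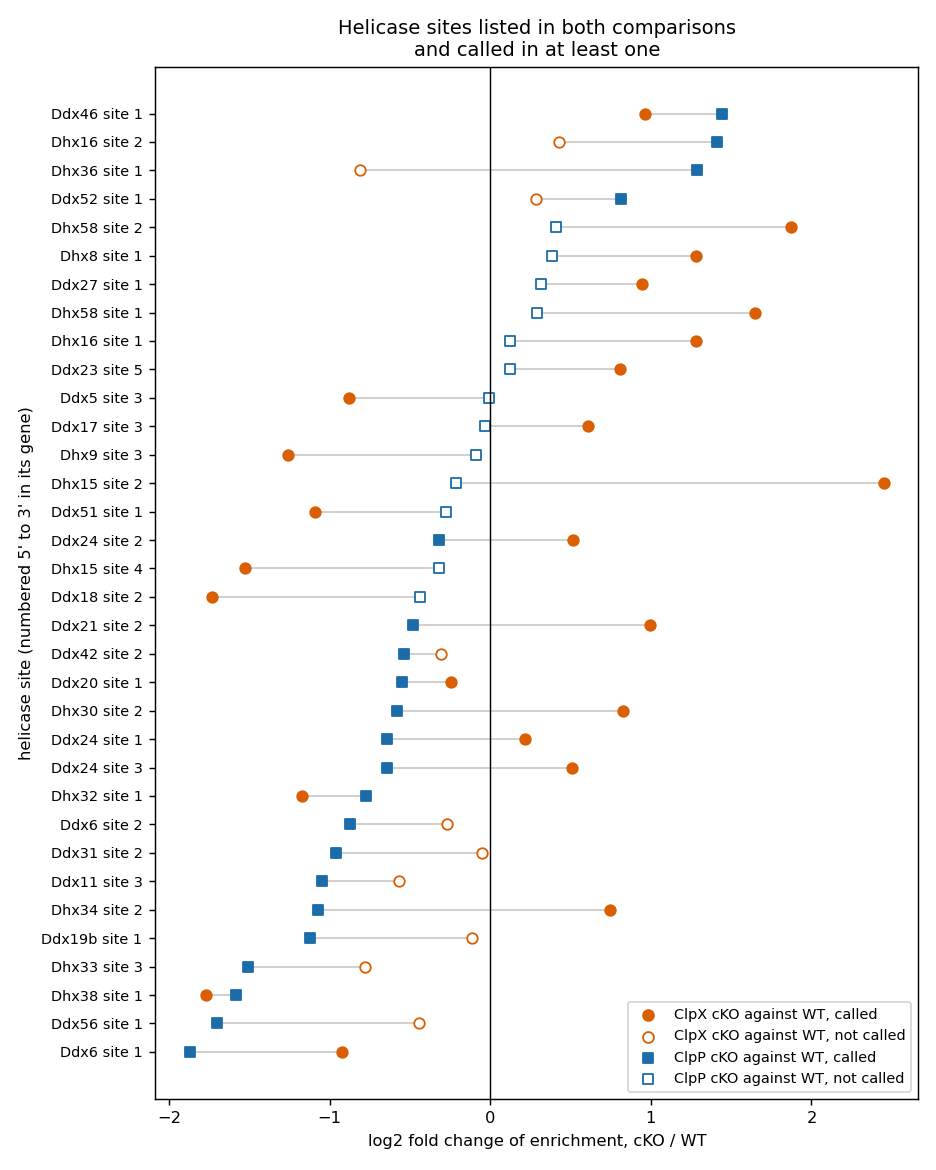
Log2 fold change of enrichment, cKO over WT (horizontal axis), at the 34 helicase sites that were listed in both tables and called in at least 1, one site per line and numbered 5′ to 3′ within its gene. Orange circles are ClpX cKO and blue squares ClpP cKO, filled where called. Both comparisons use the same WT libraries. Ddx24, Ddx21, Dhx30 and Dhx34 have filled symbols on opposite sides of 0 (with the median of all peaks subtracted, Ddx21 and Dhx30 alone of these keep both calls), and Ddx46, Ddx20, Ddx6, Dhx32 and Dhx38 have both filled on the same side.

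In ClpX cKO the direction of the calls differed with the strength of the peak. Of the 65 helicase peaks whose fold enrichment lay below the median of the ClpX table (8.90), 20 were called higher and 3 lower (median log2 fold change 0.43). Of the 41 at or above it, 3 were called higher and 6 lower (median -0.19). Over all peaks listed for ClpX cKO, 24.3% of the weaker ones were called higher and 2.22% lower (median 0.55), and 5.81% and 7.79% of the stronger ones (median -0.10), the same directions as on helicase genes. In ClpP cKO 3 of 54 weaker helicase peaks were higher and 4 lower (median 0.27). Over all genes 10.4% and 13.1% of the weaker peaks were (median 0.05). Of 43 stronger helicase peaks 3 were higher and 13 lower (median -0.24), against 3.06% and 12.6% of the stronger peaks of all genes (median -0.13). The 13 are 30.2% (interval 17.2 to 46.1), and this interval lies above 12.6%. For the other shares by strength, in both comparisons, the interval holds the share over all peaks. The intervals cover counting error over peaks, which are not independent within a gene. The part of peak strength in the helicase values was not tested.

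**Figure D4:**
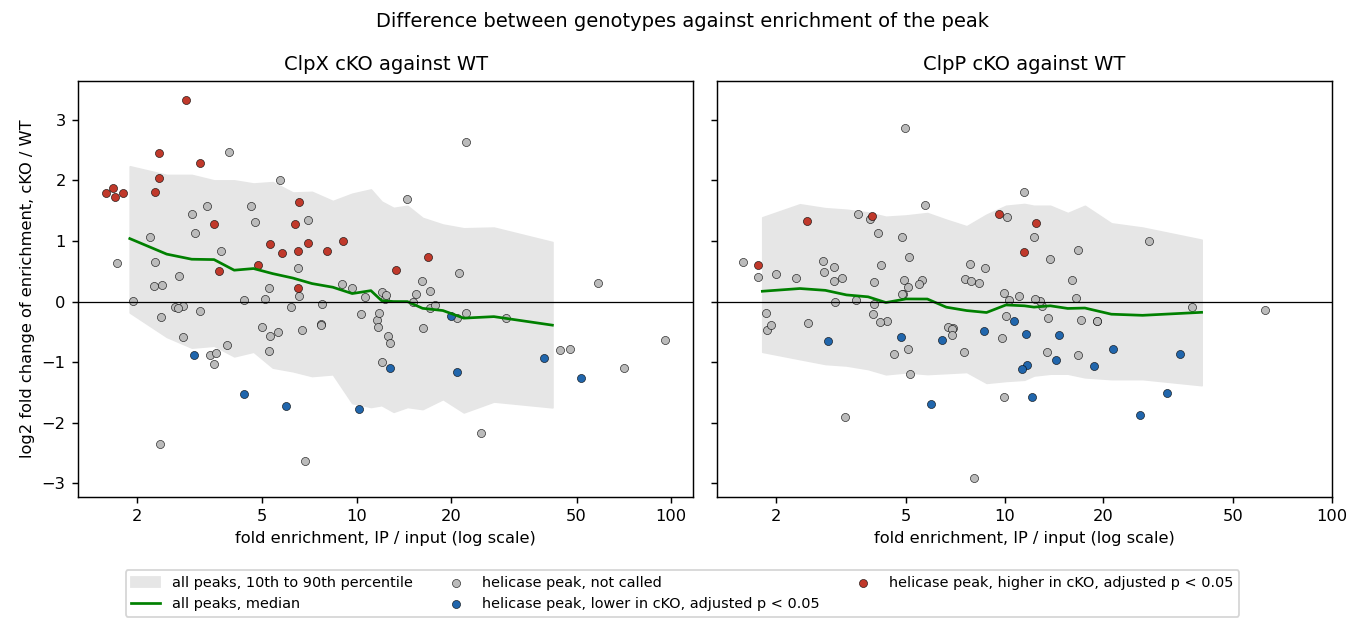
Log2 fold change of enrichment, cKO over WT (vertical axis), against fold enrichment of IP over input (horizontal axis, log scale) for helicase peaks, with ClpX cKO on the left and ClpP cKO on the right. Points are coloured by call, the green line is the median and the grey band the 10th to 90th percentile of all peaks in bins of like enrichment. In ClpX cKO 20 of the 23 peaks called higher lie below the table's median enrichment of 8.90.

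Genes that work beside these helicases were described from lists of known partners and related helicases, whose counts stand beside 15.1% of all peaks called higher and 5.0% lower in ClpX cKO, and 6.74% and 12.8% in ClpP cKO. Other RNA helicases, such as the Eif4a initiation factors, had 12 of 42 peaks (28.6%) called higher and 1 lower in ClpX cKO (median 0.35), and 5 of 37 higher and 12 lower in ClpP cKO (median -0.22). Among the leading ones, each by its peak of smallest adjusted p, in the authors' deposited ClpX table were the splicing helicase Snrnp200 at 1.36, Helz at 1.57 and Znfx1 at 1.14. In the authors' deposited ClpP table they included D1Pas1, a testis relative of Ddx3x, at -0.87. Eif4a2 stood at -1.35 there and the decay factor Upf1 at -0.58. The D1Pas1 peak shares bases with one of Gm37912. In ClpP cKO 3 genes of this list had peaks called in both directions, so the value given need not hold for the whole gene.

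G-patch proteins, several of which switch on DEAH helicases such as Dhx15, had 18 of 59 peaks (30.5%, interval 19.2 to 43.9) called higher and 2 lower in ClpX cKO (median 0.43). In ClpP cKO 6 of 63 were higher and 6 lower (median -0.03). Tfip11, the partner of Dhx15 in spliceosome disassembly, was called higher in ClpX cKO at 1.85, with Son at 1.01, Sugp2 at 1.66 and Rbm5 at 2.92, in the authors' deposited table. For ClpP cKO the authors' deposited table gave -0.60 for Sugp2, -0.59 for Son, 2.16 for Rbm6 and 1.03 for Sugp1. In that comparison 1 gene of the G-patch list was called in both directions. Partners of the export and decay helicases had 10 of 32 peaks (31.25%) called higher and 1 lower in ClpX cKO (median 0.54), and 2 of 34 higher and 8 lower in ClpP cKO (median -0.12). Nup214, which docks Ddx19b at the pore, was called higher in ClpX cKO at 1.27 and lower in ClpP cKO at -1.37 in the authors' deposited tables. Also leading in the authors' deposited ClpX table were the decapping factor Edc3 at 1.65, the Ddx6 partner Eif4enif1 at 1.14 and Lsm14a at 2.14. In the authors' deposited ClpP table they were the export factors Nxt1 at -0.79 and Thoc3 at -0.95, and Lsm14a at 2.22. In ClpX cKO 1 gene of this list was called in both directions.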

How the data were processed

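m6A-seq libraries (1 IP and 1 input for each of ClpX cKO, ClpP cKO and WT, 6 in all) were grouped by their titles. Per the submitters' processing notes the genome is GRCm38 (mm10). The sources used here name no aligner, peak caller or depth normalisation. The authors deposited for each peak, per the file headers, a fold enrichment (a linear ratio of IP over input), a log2 fold change between genotypes, and scores that are the log10 of the adjusted p of the peak and of the p-value and adjusted p of the difference. Benjamini-Hochberg values recomputed here lay within 0.05 (log10 scale) of the deposited ones for 99.3% (ClpX) and 99.4% (ClpP) of peaks.

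Peaks were counted by the deposited adjusted p (under 0.05) and the sign of the log2 fold change. Sites of both tables were paired as best mutual overlaps within a gene and strand, with a minimum of 1 shared exonic base (bedtools 2.31.1). Peak centres were placed in GRCm38.p6 gene spans from RefSeq, found through symbols and synonyms. Shares carry exact binomial 95% intervals, which cover counting error only. Every member is named, those with a call and Ddx25 with the value of each called peak and the values or range of their other peaks, and of each partner list up to 4 called genes per comparison, by smallest adjusted p. A gene of these lists is not reported here. The members, role groups and lists were chosen with earlier results of these data known. Calling anew after a shift in scale was tested on simulated data. The simulated p-values followed exactly from the simulated errors. Deposited p-values did not do so near a log2 fold change of 0 (0.53 at the second Dhx37 site in ClpX cKO). The simulation therefore could not show the limit on unpooled errors given above. No genome or protein sequence was used here, so motifs in peaks and proteins, though planned, were not searched. Python 3.11.15, pandas 2.3.3, scipy 1.17.1 and matplotlib 3.10.9 were used.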

Additional observations from a re-analysis of the deposited data

Results flagged for a closer look

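At 6 helicase sites the authors called a higher enrichment in ClpX cKO and a lower one in ClpP cKO. The difference itself (log2 fold change in ClpX cKO minus that in ClpP cKO) was not tested, both values rest on the same WT libraries, and the peaks of a pair do not have identical ends. It was 1.81 at the second site of Dhx34, 1.48 at the second of Ddx21 and 1.41 at the second of Dhx30. At the 3 sites of Ddx24 listed in both tables it was 0.86, 0.84 and 1.15 from the 5′ to the 3′ end. No helicase site was called lower in ClpX cKO and higher in ClpP cKO. Beside these values, the median of all peaks was 0.24 in the ClpX table and -0.03 in the ClpP table. Calls over all peaks lean the same way. They were 15.1% higher and 5.0% lower in ClpX cKO, and 6.74% higher and 12.8% lower in ClpP cKO. How often paired peaks of all genes were called in opposite directions was not counted. With each table's median subtracted, 4 of the 6 sites lost the ClpX call: those of Ddx24 (-0.022, 0.28 and 0.27) and that of Dhx34 (0.50). Ddx21 (0.76) and Dhx30 (0.59) kept it, and all 6 kept the ClpP call.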

How the results depend on the processing

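Counts of called helicase peaks in ClpX cKO moved most. The 23 called higher became 14 at an adjusted p under 0.01, 14 with the median of all peaks subtracted, 13 with pooled errors as well (an alternative chosen after seeing the data), 12 with a size minimum of 1 on the log2 scale, and 8 with the peak of highest fold enrichment per gene. The 9 called lower became 5 at the stricter adjusted p, 26 with the median subtracted and 21 with pooled errors. The 26 carries the limit given above, that errors without pooling are too small for peaks with a log2 fold change near 0. The ClpX median of 0.06 became -0.18 with the median subtracted, -0.15 with the peak of highest enrichment per gene and 0.45 with the peak of smallest p per gene. In ClpP cKO the 6 called higher became 3 at the stricter adjusted p, 2 with the peak of highest enrichment per gene and 12 with pooled errors, and the 17 called lower became 7 with the size minimum and 11 with the peak of highest enrichment. The first Ddx24 site, at 0.22 in ClpX cKO, became -0.022 with the median subtracted and lost its call. Of the 56 peaks given in full, 9 others lost their call under that subtraction (in ClpX cKO Ddx10, Ddx17, Ddx23, Ddx27, Dhx8 and Dhx34 at 1 site each and Ddx24 at 2, and in ClpP cKO Ddx31), 19 at the stricter adjusted p and 26 under the size minimum. Why these counts moved was not tested. No paired analysis was possible because each group holds 1 library, and none could be left out. Depth is unknown, so no limit from counting reads can be given.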
